A study of Mus musculus with 18 samples.

Results

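Trophoblast transcription factors and simple epithelial keratins were followed across all conditions of a mouse differentiation series. The group holds 8 of the 25239 genes in the count table. It was taken by gene symbol from general knowledge, with earlier results of these data known. Its 4 transcription factors are Cdx2, Gata3, Elf5 and Hand1, and its 4 keratins are Krt7, Krt8, Krt18 and Krt19.

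RNA-seq counts were available for 18 libraries of E14Tg2a mouse embryonic stem cell origin, 2 in each of 9 groups. Wild-type (WT) cells were sampled as EpiLCs (epiblast-like cells, day 0), as aggregates without cytokines at days 2 and 6, and with cytokines at day 6. Cells that carried Tet1-/-, Tet2-/- and Tet3-/- deletions together (TKO) were sampled as EpiLCs and as aggregates with and without cytokines at days 2 and 6. TET proteins are enzymes that oxidise methylated cytosine in DNA, and the deletions removed the reading frames with CRISPR/Cas9 in lines grown from single cells, and by the study's methods a single TKO clone served for differentiation. The study's legends call the 2 replicates biological, and the labels do not say how they were made. All EpiLCs were made from cells held in 2i/LIF by exposure to Activin A and Fgf. Aggregates were then grown in suspension in GK15 medium, and the cytokines, which direct EpiLCs towards primordial germ cell-like cells (PGCLCs), were BMP4, BMP8a, SCF, LIF and EGF. The WT cells grown with cytokines were, by the study's figure legend, sorted on the surface antigens SSEA1 and CD61, and all other aggregates were taken whole, whereas the labels make no such distinction. In every comparison with that group, cytokines or genotype and the sort cannot be told apart.

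The trophoblast is the outer lineage of the early embryo and forms the placenta. CDX2, GATA3 and ELF5 are transcription factors of trophoblast stem cells and early trophectoderm, and HAND1 is needed for trophoblast giant cells. Outside the trophoblast, CDX2 acts in the posterior embryo and the intestine, and HAND1 in lateral mesoderm and the heart. Keratins are intermediate filament proteins built from 1 acidic and 1 basic partner: KRT7 and KRT8 are basic and KRT18 and KRT19 acidic, and these 4 are the typical keratins of simple, single-layered epithelia. KRT8 and KRT18 are the usual first pair of the embryo, present in the trophectoderm.

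In mm10 (GENCODE M21), Krt8 lies on chromosome 15 at 101996698 to 102004482 on the minus strand, and Krt18 at 102028180 to 102032027 on the plus strand, with 23697 bases between them. Krt7 is on the same chromosome at 101411043 to 101430313. Krt19 is on chromosome 11 at 100140810 to 100148665, and Hand1 on chromosome 11 at 57828705 to 57832818. Cdx2 is on chromosome 5 at 147300805 to 147307270. Gata3 is on chromosome 2 at 9857078 to 9890034, and Elf5 on chromosome 2 at 103411688 to 103450989. Values below cover all annotated exons of a gene. The counting did not use strand, and in GENCODE 93 exon bases of Gata3 and 101 of Krt8 overlap an antisense gene (Gm13256 and Gm36026). Whether the annotation used for counting held these antisense genes was not checked. Reads there may have been left out as ambiguous or counted with Gata3 or Krt8.

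Promoter sequence from RefSeq (GRCm38.p6, the build of mm10) was available for 6 of the 8 genes, Hand1 and Krt19 being without an entry. Because the knockout removes enzymes that act on methylated CG sites, the 150 bases before the start site are shown with each CG in capitals for the 3 keratins on chromosome 15 and for Cdx2, the classical factor of the trophectoderm. Start sites are those of RefSeq, and the stretches lie wholly or partly within the GENCODE gene bounds given above. No methylation was measured in these libraries.
Krt8 (chr15:102004343-102004492, minus strand): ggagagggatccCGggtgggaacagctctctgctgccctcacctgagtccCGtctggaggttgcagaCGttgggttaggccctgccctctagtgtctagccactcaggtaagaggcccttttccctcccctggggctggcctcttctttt
Krt18 (chr15:102028066-102028215, plus strand): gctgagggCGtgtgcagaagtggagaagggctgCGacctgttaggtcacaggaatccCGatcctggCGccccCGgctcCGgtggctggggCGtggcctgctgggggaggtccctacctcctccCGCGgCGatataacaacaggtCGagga
Krt7 (chr15:101412253-101412402, plus strand): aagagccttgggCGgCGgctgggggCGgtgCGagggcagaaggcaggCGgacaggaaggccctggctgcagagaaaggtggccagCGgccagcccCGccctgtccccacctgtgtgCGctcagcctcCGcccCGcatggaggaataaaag
Cdx2 (chr5:147307250-147307399, minus strand): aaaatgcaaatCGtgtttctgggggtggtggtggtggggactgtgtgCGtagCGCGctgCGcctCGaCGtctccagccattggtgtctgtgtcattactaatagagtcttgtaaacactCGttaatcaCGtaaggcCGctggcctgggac
The windows of 300 bases around the start sites held 22 CG sites for Gata3, 21 for Krt7, 18 for Cdx2, 17 for Krt18 and 6 for Krt8, and Elf5 had 3 and 10 at its 2 start sites. Over all 32851 promoter windows the median was 7, with quartiles of 3 and 20. Krt8 and its neighbour Krt18 both lay between the quartiles, with more CG sites than 43.6% and 68.6% of all promoters. On either strand, the AP-2-like letters GCCNNNGGC, which read the same on both strands, were found in Cdx2, Gata3, Krt7 and Krt18, and in 16.6% of all promoters. The GATA-like letters AGATAA were found in Krt8 (11.2% of all promoters) and the TEAD-like letters GGAATG at 1 start site of Elf5 (14.7%). The CDX-like letters TTTATNG were in none of the 7 windows (10.9% of all promoters). These are letter matches and not measured binding sites.

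Total counts per library ranged from 11286050 to 41257861. Reads on Rn45s, a ribosomal RNA locus, made up 16.2% to 31.3% of counts in the 8 libraries of aggregates without cytokines and 31.7% to 47.59% in the other 10. Normalised Tet1 counts were 595.2 to 12110 in the 8 WT and 503.9 to 1937 in the 10 TKO libraries, Tet2 125.1 to 4812 and 31.75 to 404.9, and Tet3 171 to 5849 and 54.61 to 252. In TKO EpiLCs against WT EpiLCs the fitted log2 change was −2.82 for Tet1 (edgeR adjusted p = 0.000216), −2.64 for Tet3 (adjusted p = 0.00022) and −1.17 for Tet2 (adjusted p = 0.141). Summed normalised counts of 4 EpiLC markers (Fgf5, Otx2, Dnmt3b, Pou3f1) were 52890 to 57810 in WT and 24300 to 25500 in TKO EpiLCs, and 742.6 to 21970 in the aggregates. Those of 4 PGCLC markers (Prdm1, Prdm14, Tfap2c, Nanog) were 12890 to 13740 in day 6 WT cells with cytokines and 8063 to 12780 in TKO aggregates, against 52.59 to 69.48 in day 6 WT aggregates without cytokines.

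Of the markers of differentiated placenta, Prl3d1, Tpbpa and Synb were at 0 counts in all 18 libraries. Syna had 0 to 16 counts, Gcm1 0 to 132 and Plet1 0 to 107. The sum of the 6 was lowest in day 6 WT aggregates without cytokines (1.158 to 2.72 normalised counts) and highest in day 2 TKO aggregates, where libraries without cytokines (195.1 to 246.3) and with them (173.8 to 224.4) overlapped. The label of Cdx2, Gata3, Elf5 and Hand1 as trophoblast factors describes their known role. Of the placental markers, 3 gave no counts in any library, while others were higher in TKO aggregates. At day 2 without cytokines, mean normalised counts of Gcm1 were 141 in TKO and 0.487 in WT aggregates. Those of Plet1 were 75 and 9.82. Reads that mapped to several places were not counted, and whether this lowered these counts was not checked. Whether any of the cells had a trophoblast identity was not tested.

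Levels are normalised counts, for which each library was scaled by its DESeq2 size factor, and are given below as the 2 libraries of a group or as mean ± SD (n = 2). Fold changes are log2 values from edgeR's quasi-likelihood test over all groups, and a gene was called when its p, adjusted by Benjamini-Hochberg over 16582 tested genes, was below 0.05. Elf5 had too few counts to be tested, so 7 of the 8 genes entered the tests. Where no library of a group exceeded 3 counts, the fitted fold depends on a small added prior, and the ratio of depth-scaled counts is given with its 95% exact interval, which covers counting error only. In whole aggregates, fewer cells that express a gene and less RNA per cell cannot be told apart.

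Between genes the levels differed widely. Per kilobase of exon, normalised counts in WT EpiLCs were 707 ± 59.7 (SD, n = 2) for Krt18, 119 ± 5.72 for Krt8, 24.4 ± 3.03 for Krt19 and 12 ± 5.89 for Krt7. The factors were lower, at 1.43 ± 0.986 for Cdx2, 0.923 ± 0.815 for Gata3, 0.804 ± 1.14 for Hand1 and 0.313 ± 0.443 for Elf5, and did not differ from each other beyond their spread. In day 2 TKO aggregates with cytokines the same measure was 1850 ± 62.6 for Krt18, 1720 ± 135 for Krt8, 454 ± 108 for Krt19 and 95.2 ± 12.1 for Krt7. There it was 46.4 ± 40 for Cdx2, 31.6 ± 9.33 for Gata3 and 30.7 ± 3.9 for Hand1, again within the spread, and 0.699 ± 0.988 for Elf5.

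**Figure D1:**
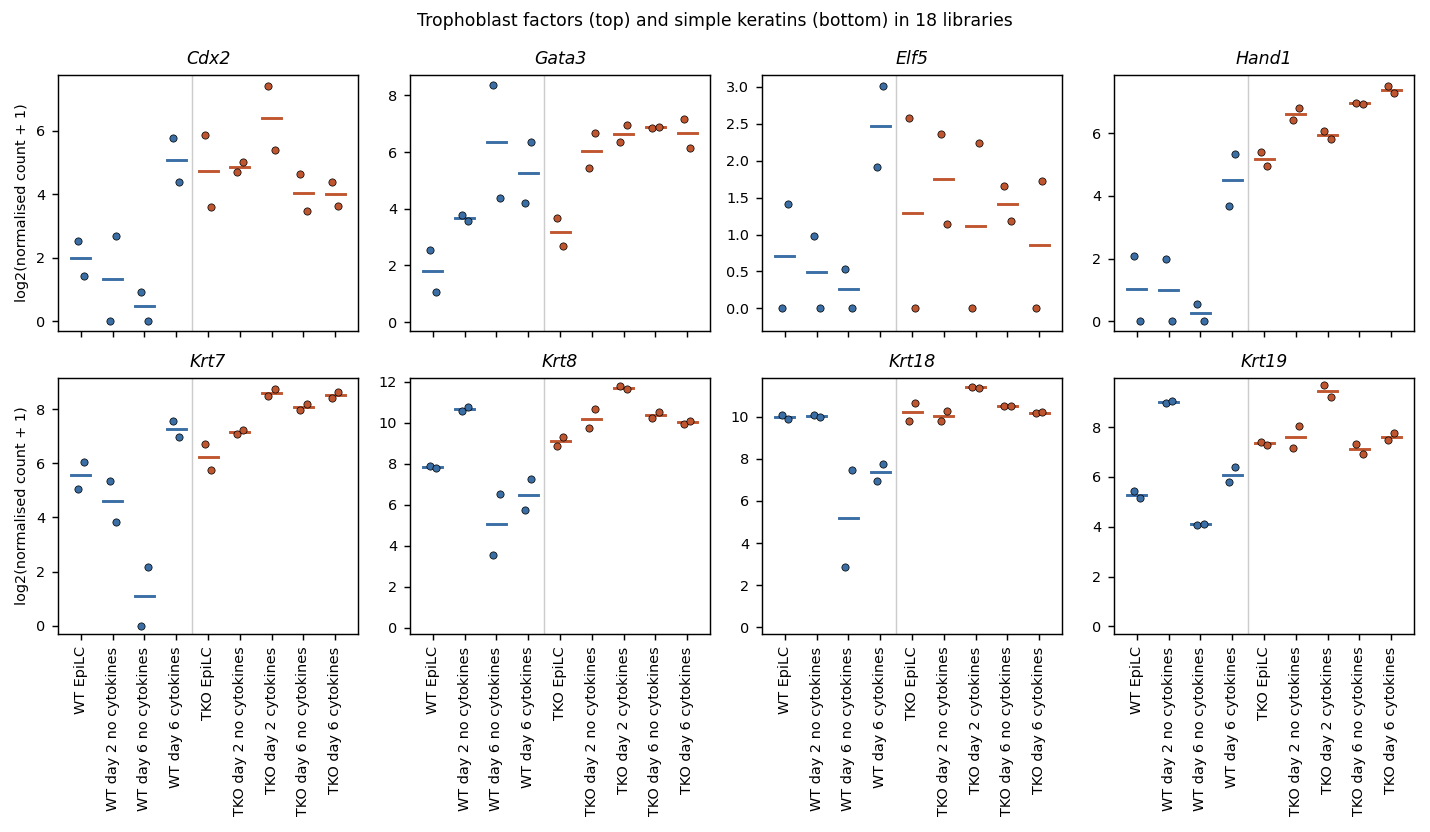
Levels of the 8 genes in each of the 18 libraries, as log2(normalised count + 1) on the vertical axis by condition on the horizontal axis. Points are libraries, bars the mean of the 2 libraries, blue is WT and orange TKO, and each panel has its own scale. Hand1 sits at or below 2.924 normalised counts in the WT aggregates without cytokines and at 55.86 or more in every TKO aggregate, and Krt7, Krt8, Krt18 and Krt19 are low in day 6 WT aggregates without cytokines.

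Cdx2, a homeobox factor of the trophectoderm and posterior body, was detected in every TKO library. Its normalised counts were 4.819 and 1.668 in WT EpiLCs, 0 and 5.438 in WT aggregates without cytokines at day 2, and 0.9067 and 0 at day 6. Day 6 WT cells with cytokines had 53.54 and 19.95. In TKO cells the values were 57.54 and 11 in EpiLCs, 24.91 and 31.24 at day 2 without cytokines, 168.9 and 40.96 at day 2 with cytokines, 23.69 and 10.1 at day 6 without, and 20.16 and 11.48 at day 6 with cytokines. All 10 TKO libraries lay above all 6 WT libraries of EpiLCs and aggregates without cytokines, but replicates differed several-fold in TKO EpiLCs and day 2 TKO aggregates with cytokines. By mean level the order was day 2 TKO with cytokines, day 6 WT with cytokines, TKO EpiLCs and day 2 TKO without cytokines, and the libraries of these neighbours overlapped. Day 6 TKO aggregates without and with cytokines came next, followed by WT EpiLCs and WT aggregates at days 2 and 6, and neighbours within each of these last sets overlapped too.

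Gata3, a zinc-finger factor of trophectoderm and several later lineages, was at 4.819 and 1.112 normalised counts in WT EpiLCs and at 11.9 and 5.498 in TKO EpiLCs. In WT aggregates lacking cytokines the day 2 libraries had 12.67 and 10.88 and the day 6 libraries 330.9 and 19.69. Day 6 WT cells with cytokines had 17.38 and 81.08. The pair at day 6 without cytokines came from 730 and 17 counts, the largest gap between replicates seen for the gene. Values in TKO aggregates were closer together, at 42.55 and 100.9 (day 2 without cytokines), 80.46 and 122.9 (day 2 with), 115.2 and 118.6 (day 6 without) and 144.5 and 70.03 (day 6 with). From the 175.3 mean of day 6 WT without cytokines down to the 49.23 of day 6 WT with cytokines, each of the 6 groups overlapped its neighbour in the order. WT aggregates at day 2 and TKO EpiLCs came next and overlapped each other, and WT EpiLCs were lowest.

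Hand1, a basic helix-loop-helix factor of giant cells and lateral mesoderm, had 3.213 and 0 normalised counts in WT EpiLCs. WT aggregates without cytokines held 2.924 and 0 at day 2, then 0.4533 and 0 at day 6. Day 6 WT cells with cytokines had 11.82 and 39.25. TKO EpiLCs had 41.67 and 29.69, and TKO aggregates 84.07 and 111.7 at day 2 without cytokines, 66.86 and 55.86 at day 2 with, 122.8 and 122.4 at day 6 without and 179.7 and 155 at day 6 with cytokines. Every TKO aggregate library exceeded every WT library. The 4 TKO aggregate groups did not overlap each other, whereas TKO EpiLCs overlapped day 6 WT cells with cytokines and the 3 lowest WT groups overlapped among themselves.

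Elf5, an ETS factor that maintains trophoblast stem cells, was barely detected. It had 0 to 11 counts per library, with 4 and 11 counts in day 6 WT cells with cytokines, 5 and 0 in TKO EpiLCs, and 4 and 1 for day 2 TKO aggregates without cytokines. The remaining groups had 3 counts or fewer in each library. In day 6 WT cells with against without cytokines the ratio of scaled counts was 15.4 with an interval of 2.37 to 648, and in TKO against WT EpiLCs it was 2.1 (0.409 to 13.6). No difference in Elf5 between TKO and WT EpiLCs was detectable at this depth.

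Krt7 encodes a basic keratin of simple and glandular epithelia. It had 32.13 and 66.15 normalised counts in WT EpiLCs, 39.97 and 13.21 in WT aggregates at day 2 and 0 and 3.474 at day 6 without cytokines. Day 6 WT cells with cytokines had 189.1 and 124.8, and TKO EpiLCs 103.2 and 52.78. In TKO aggregates Krt7 was at 133.9 and 150.2 (day 2 without cytokines), 354.7 and 424.5 (day 2 with), 248.7 and 295.3 (day 6 without) and 337.6 and 396.1 (day 6 with). The 2 TKO groups with cytokines overlapped at the top of the order, and day 6 WT cells without cytokines stood alone at the bottom.

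Krt8, the basic member of the first keratin pair of the embryo, had 241 and 225.1 normalised counts in WT EpiLCs and 1558 and 1730 in WT aggregates at day 2. It was at 10.88 and 92.64 in WT aggregates at day 6 without cytokines and at 52.84 and 151.9 with them. TKO EpiLCs had 469.2 and 633.3. TKO aggregates had 846.9 and 1656 (day 2 without cytokines), 3561 and 3186 (day 2 with), 1218 and 1468 (day 6 without) and 1001 and 1096 (day 6 with). Day 2 TKO cells with cytokines were above all other groups, the libraries of day 2 TKO without cytokines spanned those of day 6 TKO aggregates and reached those of day 2 WT, and the day 6 WT groups were lowest and overlapped.

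Krt18, the acidic partner of Krt8, was at 1076 and 955 normalised counts in WT EpiLCs and at 1079 and 992.9 in WT aggregates at day 2. At day 6 these aggregates had 6.347 and 174.9, and WT cells with cytokines 121 and 216.9. TKO EpiLCs had 874 and 1605. TKO aggregates had 888.4 and 1228 (day 2 without cytokines), 2729 and 2602 (day 2 with), 1449 and 1470 (day 6 without) and 1137 and 1192 (day 6 with). Aside from the high pair of day 2 TKO with cytokines and the low day 6 WT groups, all libraries lay between 874 and 1605.

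Krt19, an acidic keratin of simple epithelia, had 41.77 and 35.02 normalised counts in WT EpiLCs and 506.9 and 529.1 in WT aggregates at day 2. It was at 15.87 and 16.21 in WT aggregates at day 6 without cytokines and at 54.93 and 82.37 with them. TKO EpiLCs had 167.7 and 156.1. TKO aggregates had 143.2 and 264.3 (day 2 without cytokines), 835.2 and 594.6 (day 2 with), 160.4 and 119.9 (day 6 without) and 178.1 and 215.8 (day 6 with). The 2 highest groups, day 2 TKO with cytokines and day 2 WT without, did not overlap, nor did the 3 lowest, and of the 4 TKO groups between them day 2 without cytokines overlapped the other 3.

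The first comparison asked whether the genes differed between genotypes before aggregation. In TKO EpiLCs against WT EpiLCs, 3 of the 7 tested genes were higher and none lower, against 7.57% of all tested genes that were higher. Krt19 rose by 2.12 (SE 0.32, adjusted p = 0.0011). The ratio of scaled counts was 43.6 (11.6 to 367) for Hand1, with an adjusted p of 0.00407, and 14.3 (6.25 to 40.4) for Cdx2, with an adjusted p of 0.0494. Gata3, Krt7, Krt8 and Krt18 did not pass, with log2 changes of 1.96, 0.63, 1.27 and 0.32, Krt8 being called without the filter on low counts (adjusted p = 0.0268) and with only these libraries in the model (0.0184). The Cdx2 call was lost with RLE factors (adjusted p = 0.0518), with only these libraries in the model (0.0511), without TKO replicate 1 (log2 change 2.03, adjusted p = 0.389) and without WT replicate 1 or 2 (adjusted p = 0.142 and 0.339), and that of Hand1 without WT replicate 2 (3.48, adjusted p = 0.0893).

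From EpiLCs to day 2 without cytokines, Krt8 and Krt19 rose in WT cells, 2 of the 7 tested genes, where 18.6% of all genes were higher. Krt8 rose by 2.87 (SE 0.58, adjusted p = 0.00155) and Krt19 by 3.82 (SE 0.33, adjusted p = 1.19e-06). Krt18, the partner of Krt8, had a log2 change of 0.08 (SE 0.67) and Krt7 one of −0.94 (SE 0.54), neither of which passed. Cdx2, Gata3 and Hand1 did not pass either, with adjusted p of 0.94, 0.213 and 0.804, although Gata3 (2.39) was called with only these libraries in the model (adjusted p = 0.0289).

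From day 2 to day 6 without cytokines, all 4 keratins fell in WT aggregates. Of the 7 tested genes 4 were lower, against 19% of all genes, and 1 was higher, against 20.5%. Krt8 fell by 5.24 on the log2 scale (SE 0.67, adjusted p = 2.63e-05), Krt19 by 5.05 (SE 0.35, adjusted p = 8.93e-08) and Krt18 by 3.72 (SE 0.78, adjusted p = 0.00143). Krt7 went from 26.59 ± 18.9 to 1.737 ± 2.46 normalised counts (SD, n = 2), a ratio of 25.7 (8.35 to 128) with an adjusted p of 0.000872. Gata3 rose by 3.87 (SE 1.01, adjusted p = 0.00674), and without WT day 6 replicate 1 its change was 0.7 (adjusted p = 0.599) and without WT day 2 replicate 2 it was 3.8 (adjusted p = 0.06). With only these 4 libraries in the model, Gata3, Krt7 and Krt18 had adjusted p of 0.1, 0.0841 and 0.112, and the calls of Krt8 and Krt19 were kept. The 2 day 6 libraries differed in marker levels. Summed counts of 4 neural markers (Pax6, Sox1, Neurog2, Map2) were 14200 in replicate 1 and 9585 in replicate 2. Those of 4 endoderm markers (Sox17, Foxa2, Sox7, Ttr) were 80.24 and 1347. Foxa2 made 66.64 of the sum in replicate 1 and Ttr 1331 in replicate 2, so the higher endoderm sum of replicate 2 rests on Ttr alone. No neural or endoderm marker was at 0 in either library. Replicate 1, with the high Gata3, also had the high Tbx20 (813.3 against 13.9 normalised counts). Replicate 2 had the higher Krt8 and Krt18, and also the higher Wnt3a (834.9 against 0.9067), Msx1 (1182 against 12.69) and Tfap2b (1566 against 283.3). What part such differences between the libraries had in the results was not tested. Elsewhere the neural sum was 96.33 to 3922 and the endoderm sum 7.782 to 217.5.

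In day 6 WT cells with cytokines against WT EpiLCs, Cdx2, Gata3, Hand1, Krt7 and Krt19 were higher and Krt18 was lower, while Elf5 was not tested. Of the 7 genes 5 were higher, against 22.4% of all genes, and 1 lower, against 18.2%. The ratio of scaled counts was 24.4 (10.2 to 76.4) for Gata3, 31.6 (8.45 to 265) for Hand1 and 14.6 (6.48 to 40.6) for Cdx2, with adjusted p of 0.0127, 0.00151 and 0.014. Krt7 rose by 1.65 (SE 0.49, adjusted p = 0.0153), Krt19 rose by 0.9 (SE 0.32, adjusted p = 0.0342) and Krt18 fell by 2.54 (SE 0.71, adjusted p = 0.0106). Krt8 did not pass at −1.14 (SE 0.58, adjusted p = 0.131), but was called with only the libraries compared (adjusted p = 0.0125) and without the second sorted library (−2.09, adjusted p = 0.0489). Leaving out 1 of the 4 libraries left 3 to 5 of the 7 called. Hand1 was called each time, Krt19 in 1 of 4 (a change of 0.58 without the second sorted library), Cdx2, Gata3 and Krt7 in 2 of 4 each and Krt18 in 3 of 4.

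Against day 6 WT aggregates without cytokines, the same sorted cells had 4 of the 7 genes higher and none lower, where 29.6% of all genes were higher. The ratio of scaled counts was 159 (54.2 to 775) for Krt7, 80 (13.9 to 3200) for Hand1 and 55.4 (15 to 463) for Cdx2, with adjusted p of 1.96e-06, 0.000186 and 0.00143. Krt19 rose by 2.13 (SE 0.34, adjusted p = 7.08e-05). Krt8 (1.23), Krt18 (1.1) and Gata3 (−1.81) did not pass with both aggregate libraries. Without replicate 2 of these aggregates all 7 were called, Krt8 at 3.28 (adjusted p = 0.000134), Krt18 at 4.76 (adjusted p = 4.39e-07) and Gata3 at −2.69 (adjusted p = 0.00132). Krt8 was also called without sorted replicate 1 (1.79, adjusted p = 0.0403) and Gata3 without sorted replicate 2 (−3.3, adjusted p = 0.0339). As both comparisons share the sorted libraries, their values are set side by side only.

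**Figure D2:**
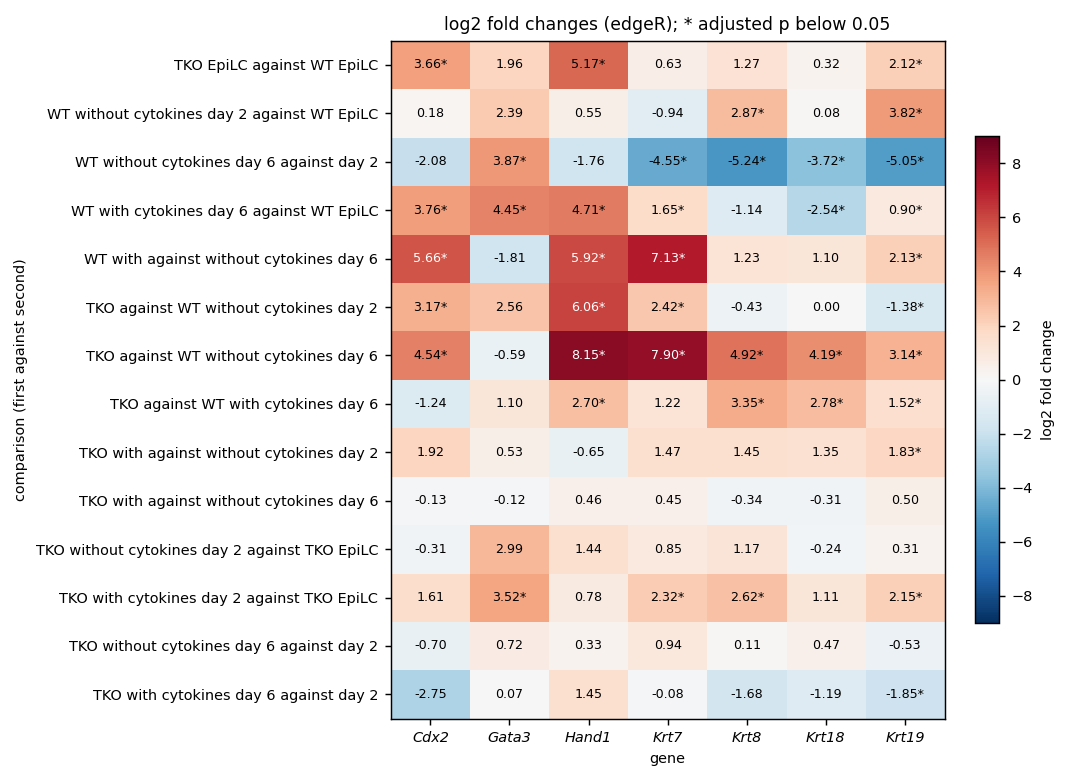
Fitted log2 fold changes (edgeR) of the 7 tested genes (columns) in 14 comparisons (rows, first condition against second), red for higher and blue for lower in the first, with a star at an adjusted p below 0.05. Hand1 (8.15) and Krt7 (7.9) have the highest values, in day 6 TKO against WT aggregates without cytokines, and 3 rows for TKO aggregates carry no star. Values against groups with 3 counts or fewer per library depend on the prior count.

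At day 2 without cytokines, both genotypes being whole aggregates, Cdx2, Hand1 and Krt7 were higher in TKO than in WT cells and Krt19 was lower. These were 3 and 1 of the 7 genes, against 18% of all genes higher and 14.8% lower. Hand1 had a ratio of scaled counts of 74.7 (25.1 to 366, adjusted p = 9.99e-05). Krt7 rose by 2.42 (SE 0.53, adjusted p = 0.00286) and Cdx2 by 3.17 (SE 1.09, adjusted p = 0.036). Krt19 fell by 1.38 (SE 0.29, adjusted p = 0.00186), from 518 ± 15.7 in WT to 203.8 ± 85.6 in TKO (SD, n = 2). Krt8 had a log2 difference of −0.43 (SE 0.53) and Krt18 of 0 (SE 0.66), and neither passed. Gata3 did not pass at 2.56 (SE 1.01, adjusted p = 0.0632) with libraries that did not overlap, but was called by DESeq2 (adjusted p = 0.0176), without the filter on low counts (0.00651), with library size alone (0.0376) and with only the libraries compared (0.00213). The Cdx2 call was lost without WT replicate 1 or either TKO library (adjusted p of 0.181, 0.0841 and 0.113).

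By day 6 without cytokines 6 of the 7 genes were higher in TKO cells, against 28.5% of all genes, and the median log2 difference of the 7 was 4.54, against 0.01 over all genes. This median is the fitted value of Cdx2, which depends on the small added prior. Ratios of scaled counts were 376 (66.8 to 14900) for Hand1, 276 (94 to 1350) for Krt7 and 26.8 (6.79 to 231) for Cdx2, with adjusted p of 7.05e-06, 9.1e-07 and 0.0102. The log2 difference was 4.92 for Krt8 (SE 0.67, adjusted p = 2e-05), 4.19 for Krt18 (SE 0.79, adjusted p = 0.000373) and 3.14 for Krt19 (SE 0.34, adjusted p = 2.26e-06). Gata3 was the exception at −0.59 (SE 0.85, adjusted p = 0.58), and without WT replicate 1 its difference was 2.58 (adjusted p = 0.0175). The Cdx2 call was lost without TKO replicate 1 (3.79, adjusted p = 0.0788), and that of Krt18 with only the libraries compared (4.14, adjusted p = 0.0662).

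The change from day 2 to day 6 differed between genotypes for the 4 keratins. TKO minus WT change was 5.49 for Krt7 (SE 1.02, adjusted p = 0.00165), 5.35 for Krt8 (SE 0.84, adjusted p = 0.000494), 4.19 for Krt18 (SE 1.01, adjusted p = 0.00978) and 4.53 for Krt19 (SE 0.45, adjusted p = 8.59e-06). These are 4 of 7 genes with a higher value, against 9.81% of all genes. The Krt7 value depends on the small added prior, as the day 6 WT libraries had 3 counts or fewer. The Krt18 call was lost without day 2 TKO replicate 1 (adjusted p = 0.0507) and with only these libraries in the model (0.083). From EpiLCs to day 2 the only call among the 7 was that of Krt19, whose change was lower in TKO cells by −3.51 (SE 0.43, adjusted p = 0.000109), where 6.19% of all genes were lower. Gata3 had a day 2 to day 6 difference of −3.15 (SE 1.32, adjusted p = 0.113), which was called without day 6 WT replicate 2 (−4.02, adjusted p = 0.00294).

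With cytokines at day 6, TKO aggregates were higher than sorted WT cells in 4 of the 7 genes, against 11.3% of all genes. Krt8 differed by 3.35 (SE 0.6, adjusted p = 0.00151), Krt18 by 2.78 (SE 0.72, adjusted p = 0.0144), Hand1 by 2.7 (SE 0.61, adjusted p = 0.00662) and Krt19 by 1.52 (SE 0.3, adjusted p = 0.00279). Cdx2 had a log2 difference of −1.24 (SE 0.92), Gata3 of 1.1 (SE 0.89) and Krt7 of 1.22 (SE 0.47), which did not pass, although DESeq2 called Krt7 (adjusted p = 0.0328). Without WT replicate 1 only the Krt8 call was left, the others having adjusted p of 0.0929 (Hand1), 0.148 (Krt18) and 0.0566 (Krt19). The Krt18 call was also lost without WT replicate 2 (adjusted p = 0.055) or TKO replicate 1 (0.0502).

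Within the TKO line cytokines could be compared in whole aggregates. At day 2 the only gene of the 7 that was called was Krt19, which rose by 1.83 (SE 0.29, adjusted p = 0.0034), against 2.05% of all genes that were higher. Krt7, Krt8 and Krt18 had log2 differences of 1.47, 1.45 and 1.35 with libraries that did not overlap, and adjusted p of 0.0843, 0.124 and 0.238. DESeq2 called Krt7 as well (adjusted p = 0.0226), and a model of these 4 libraries alone called 5 genes. Without day 2 TKO replicate 1 with cytokines the Krt19 difference was 1.58 (adjusted p = 0.0536). At day 6 edgeR called none of the 7, against 5.61% of all genes in either direction. There none had an unadjusted p below 0.05, none was called by DESeq2, and the log2 differences lay between −0.34 (Krt8) and 0.5 (Krt19).

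The cytokine difference at day 6 was smaller in TKO than in WT cells for 4 of the 7 genes, against 22% of all genes. TKO minus WT cytokine difference was −6.68 for Krt7 (SE 0.96, adjusted p = 5.7e-05), −5.79 for Cdx2 (SE 1.65, adjusted p = 0.0107), −5.45 for Hand1 (SE 1.25, adjusted p = 0.00259) and −1.63 for Krt19 (SE 0.45, adjusted p = 0.00848). The WT part of this difference also holds the sort. In WT aggregates without cytokines Krt7, Cdx2 and Hand1 had 3 counts or fewer in each library, so their values depend on the small added prior. Without replicate 2 of the WT aggregates all 7 were called, with Krt18 at −5.07, Krt8 at −3.62 and Gata3 at 2.56. The Cdx2 value was −5.04 without TKO replicate 1 lacking cytokines (adjusted p = 0.0541).

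Over time, TKO cells without cytokines showed no called change in the 7 genes. From EpiLCs to day 2 edgeR called none, against 18.7% of all genes, with 3 genes at an unadjusted p below 0.05 (Gata3 2.99, Hand1 1.44 and Krt8 1.17) and 2 called by DESeq2, Gata3 (adjusted p = 0.0107) and Hand1 (adjusted p = 0.0365). From day 2 to day 6 edgeR and DESeq2 called none, against 0.476% of all genes, and none had an unadjusted p below 0.05. With cytokines, 4 of the 7 rose from EpiLCs to day 2, against 7.88% of all genes. Krt8 rose by 2.62 (SE 0.57, adjusted p = 0.00601), Krt7 by 2.32 (SE 0.49, adjusted p = 0.00533), Krt19 by 2.15 (SE 0.29, adjusted p = 0.000193) and Gata3 by 3.52 (SE 1.06, adjusted p = 0.0374). The Gata3 call was lost when any of the 4 libraries was left out (adjusted p 0.0776 to 0.198), that of Krt8 without TKO EpiLC replicate 1 (adjusted p = 0.0579) and that of Krt7 without TKO EpiLC replicate 2 (adjusted p = 0.0637). From day 2 to day 6 with cytokines Krt19 fell by 1.85 (SE 0.29, adjusted p = 0.00165), 1 of 7 genes against 1.72% of all genes, while Cdx2 (−2.75), Krt8 (−1.68) and Krt18 (−1.19) did not pass, Cdx2 being called by DESeq2 (adjusted p = 0.0477).

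Krt8 and Krt18 encode partners of 1 filament, and their counts were set against each other within each library. The ratio of Krt8 to Krt18 counts was 0.224 and 0.236 in WT EpiLCs and 1.44 and 1.74 in WT aggregates at day 2. It was 0.537 and 0.395 in TKO EpiLCs, and 0.953 and 1.35 (day 2 without cytokines), 1.3 and 1.22 (day 2 with), 0.84 and 0.998 (day 6 without) and 0.88 and 0.92 (day 6 with) in TKO aggregates. The 4 EpiLC libraries were at 0.537 or less, as were 1 of the WT aggregates at day 6 (0.53, against 1.71 in its replicate) and 1 sorted library (0.437, against 0.7), and all other libraries were at 0.7 or more. The ratio of 1.71 rests on only 24 Krt8 and 14 Krt18 counts. With 2 libraries a group an exact permutation test cannot reach a p below 0.05, and none is given.

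**Figure D3:**
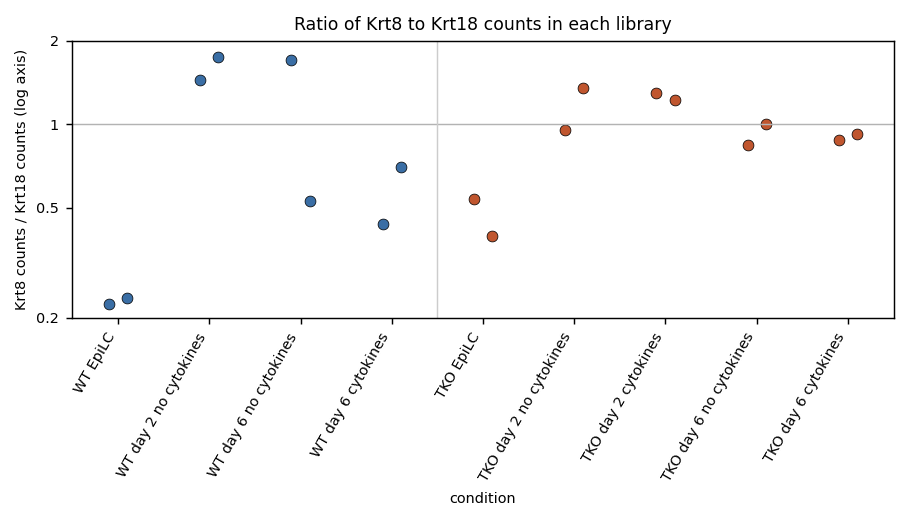
Ratio of Krt8 to Krt18 counts (vertical log axis) in each library by condition, blue for WT and orange for TKO. WT EpiLCs lie at 0.224 and 0.236, WT aggregates at day 2 at 1.44 and 1.74, and the 8 TKO aggregates between 0.84 and 1.35.

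Across the 9 group means of log2 CPM (counts scaled to TMM-adjusted library size), Krt8 followed Krt18 and Krt19 with r = 0.92 each, and Hand1 followed Krt7 with r = 0.87. Cdx2 followed Krt7 (r = 0.84) and Hand1 (r = 0.8). Gata3 was least like the keratins, with r between −0.11 (Krt18) and 0.31 (Krt7). The points are means of 2 libraries each, scaled together, and these values are descriptions without a test. Among 11961 or 11962 other genes, those closest in pattern were Gata4 (r = 0.989) and Tab3 (0.987) for Hand1, Avpi1 (0.987) and Lactb2 (0.985) for Krt7, Cr1l (0.963) and Aebp1 (0.936) for Krt8, and Rap1b (0.968) and Sntb1 (0.96) for Krt18. For Krt19 they were Anxa3 (0.964) and the desmosomal cadherin Dsc2 (0.958), for Cdx2 Dedd (0.962) and Phldb3 (0.959), and for Gata3 Nlrp5-ps (0.962) and Sirt4 (0.962). With 9 points and this many genes, high values are found for any gene.

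Other keratins were counted for all 55 keratin genes in the table, of which 19, the 4 members included, passed the filter. In day 6 WT against day 2 WT aggregates without cytokines 6 of the 19 were lower and none higher, against 19% and 20.5% of all genes, with a median log2 change of −1.73 (−0.9 with the 3 genes at 0 in a group set to their bound, a floor of 3 counts per library). In day 6 TKO against WT aggregates 14 were higher, against 28.5% of all genes, and 1, Krt10, a keratin of differentiated epidermis, was lower, against 26.9% (median 4.92, or 3.14 with 6 genes at their bound). Krt17, Krt5 and Krt42 were among these 14, with 19.38 and 36.6, 46.3 and 114.8, and 78.61 and 140.1 normalised counts in TKO against 0.4533 or less in each WT library. Krt5, the basal keratin of stratified epithelia, went the other way from Krt19 when cytokines were added to day 2 TKO aggregates, with 48.78 and 67.28 normalised counts without and 4.533 and 3.724 with them (log2 change −3.75, adjusted p = 0.0117). Krt5 was also lower with cytokines at day 6 (46.3 and 114.8 against 6.719 and 2.296, adjusted p = 0.00627), and so were Krt12 and Krt90 (adjusted p of 0.046 and 0.0375), while Krt42 was higher (log2 change 1.81, adjusted p = 0.0431). Krt10 and, for this comparison, Krt42 are named after their values were seen. At day 2 Krt12 was lower too (adjusted p = 0.0239). Nucleotide sequence is shared among keratin genes, and reads that mapped to more than 1 place were not counted, which can lower the level of any of them.

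**Figure D4:**
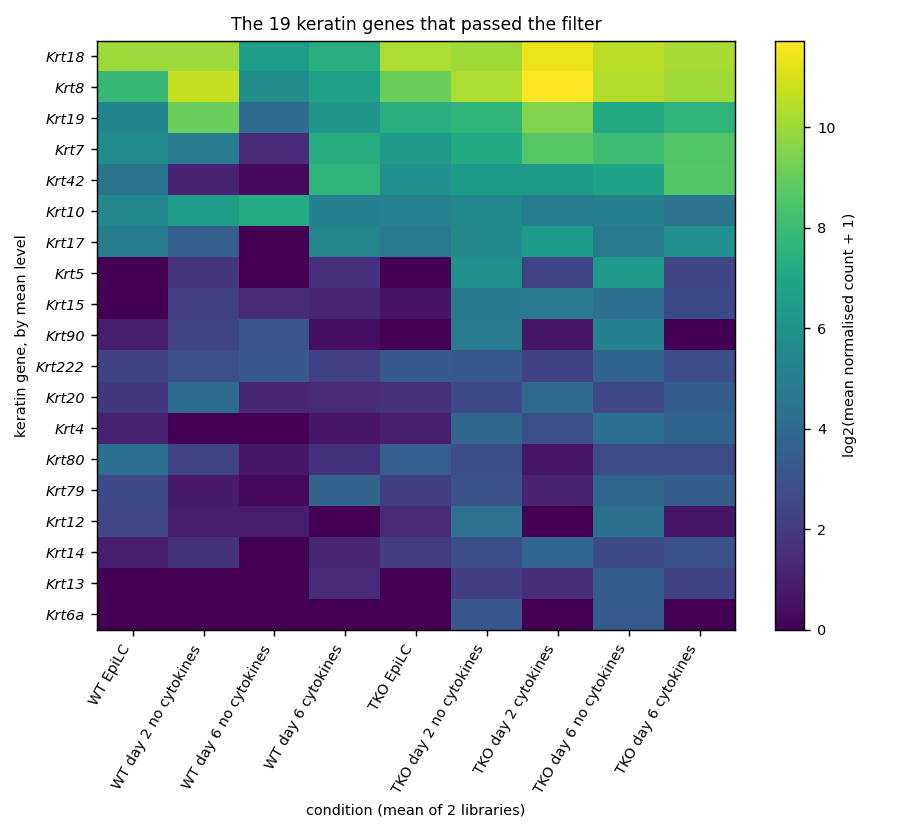
Mean levels of the 19 keratin genes that passed the filter (rows, by mean level) in the 9 conditions (columns), coloured by log2(mean normalised count + 1) of 2 libraries. The 4 simple keratins fill the top rows, and Krt5 is bright only in TKO aggregates without cytokines, at 58 (day 2) and 80.6 (day 6) against 4.51 or less elsewhere.

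Genes of the same settings were counted from lists. Of 24 wider trophoblast genes, 18 were tested. In TKO against WT EpiLCs 7 were higher, against 7.57% of all genes, and none lower (median 1.26, against 0.04), led by Peg10, an imprinted placental gene (12010 and 13470 normalised counts against 1117 and 578.1), and Eomes, a T-box factor of trophoblast and mesendoderm (log2 change 2.86, adjusted p = 0.000216). In day 2 TKO against WT aggregates without cytokines 13 were higher, led by Gcm1, Rhox9 and Rhox6, and 1, Fgfr2, lower, against 18% and 14.8% of all genes (median 3.13, against 0 over all genes). Gcm1, a factor of labyrinth trophoblast, had 137 and 145.4 normalised counts in TKO and 0.9748 and 0 in WT. At day 6 without cytokines 11 were higher and 2, Fgfr2 and Id2, lower in TKO, against 28.5% and 26.9% of all genes (median 2.79, against 0.01). With cytokines in TKO cells 2 were lower and none higher at each day, against 2.47% of all genes lower at day 2 and 3.05% at day 6, and both times these were Tfap2a (−2.42 and −2.65) and Fgfr2 (−1.31 and −1.62). In day 6 WT cells with cytokines 11 were higher and 2 lower (Hopx and Bmp8b) than in WT EpiLCs, against 22.4% and 18.2% of all genes (median 1.95, against 0.07). Tfap2c, which is on this list and on that of PGCLC markers, led them with 4013 and 2851 normalised counts against 19.28 and 21.12. Rhox6 and Rhox9 also had their highest means in these sorted WT cells, at 529 and 515 normalised counts, against at most 326 and 323 in TKO aggregates. In TKO against sorted WT cells with cytokines 3 of the list were higher and 3 lower, against 11.3% and 7.53% of all genes (median 0.39, against 0.05).

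All 20 simple epithelium genes, which make cell junctions and regulate epithelial splicing and transcription, were tested. They fell with the keratins in WT aggregates: 18 were lower and 1, Grhl3, higher at day 6 than at day 2 without cytokines (median −4.26, against 0.01 over all genes), where 19% of all genes were lower. Among them were Cldn6, a claudin of tight junctions, with 504.9 and 835.2 normalised counts at day 2 and 1.36 and 3.474 at day 6 (a ratio of 352, 162 to 961), Esrp1 (−7.98) and the E-cadherin gene Cdh1 (−7.47, from 4104 and 5535 to 23.57 and 34.74 normalised counts). All 20 were higher in TKO than in WT aggregates at day 6 without cytokines, against 28.5% of all genes (median 5.17, against 0.01). At day 2, 11 were higher, against 18%, and none lower (median 0.96, against 0). From EpiLCs to day 2, however, 2 were higher and 11 lower in WT aggregates, against 18.6% and 15.7% of all genes (median −0.93, against 0.02), while Krt8 and Krt19 rose: Dsp, a desmosomal plaque gene, rose by 3.35 and Dsc2 by 2.05, and Grhl2, an epithelial transcription factor, fell by 2.33. In TKO against sorted WT cells with cytokines 3 were higher (Spint1, Dsc2 and Evpl) and 3 lower (Esrp1, Pkp2 and Tjp3), against 11.3% and 7.53% of all genes (median 0.02, against 0.05), while Krt8, Krt18 and Krt19 were all higher. Genes of these lists that are named beyond the 3 largest changes of a comparison were named after their values were seen.

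Posterior and lateral mesoderm genes (16, of which 13 were tested) hold the other settings of Cdx2 and Hand1. In TKO against WT EpiLCs 2 were higher, against 7.57% of all genes, and none lower (median 1.07, or 0.36 with 3 genes at their bound, against 0.04). These were Gata6 (8.929 and 27.49 normalised counts against 1.606 and 0.5559) and Gata4 (107.1 and 37.38 against 4.819 and 3.891). In day 2 TKO against WT aggregates without cytokines 2 of the 13 were higher, Bmp4 (4.66) and Gata4 (4.59), and 1 lower, Hoxb1 (−3.72), shares no larger than the 18% and 14.8% of all genes (median 0.73, against 0). At day 6 without cytokines 7 were higher, led by Gata4 (219.7 and 145.1 normalised counts against 0.4533 and 0), and 4 lower (Wnt3a, Hoxb1, Tbx20 and Isl1), against 28.5% and 26.9% of all genes (median 1.79, or 1.71 with 1 gene at its bound, against 0.01). Wnt3a and Tbx20 were each high in only 1 WT library, at 0.9067 and 834.9 and at 813.3 and 13.9 normalised counts. The other WT library lay below the TKO mean (9.62 for Wnt3a and 29.8 for Tbx20). The brachyury gene T, which marks primitive streak and posterior mesoderm, rose by 5.85 from TKO EpiLCs to day 2 with cytokines, where its 2 libraries had 999.5 and 76.96 normalised counts. The library with the higher T was also the one with the higher Cdx2 (168.9 against 40.96), and the part of such cells in the Cdx2 level was not tested.

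Surface ectoderm genes (10, of which 9 were tested, and 3 of them keratins) were higher in TKO than in WT aggregates without cytokines in 4 cases at day 2 (Dlx5, Dlx6, Krt5 and Krt15), against 18% of all genes (median 2.14, against 0). At day 6, 6 were higher, against 28.5%, and Msx1 and Tfap2b were lower, against 26.9% (median 3.23, or 3.08 with 3 genes at their bound, against 0.01). The WT libraries differed widely, with Msx1 at 12.69 and 1182 normalised counts (TKO mean 17.2) and Tfap2b at 283.3 and 1566 (TKO mean 30.8). With cytokines 3 were lower and none higher in TKO cells at each day, against 2.47% of all genes lower at day 2 (median 0.11, against −0.03) and 3.05% at day 6 (median −1.49, against 0.03). At day 2 these were Dlx5, Dlx6 and Krt5, and at day 6 Tfap2b, Dlx5 and Krt5. Dlx5, a homeobox factor of ectoderm and placodes, had 67.46 and 138.2 normalised counts without and 0 and 4.965 with cytokines at day 2. None of the 7 tested trophoblast factors and simple keratins was called lower with cytokines in those libraries. With shares of only 2.47% and 3.05% over all genes, this tells little about them.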

How the data were processed

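RNA-seq of rRNA-depleted total RNA was analysed for 18 libraries, 2 per group in 9 groups taken from the labels. The authors trimmed reads with Trim Galore 0.5.0 and cutadapt 1.16, aligned them to mm10 with STAR 2.7.1a and counted read pairs on refGene exons with featureCounts of Subread 1.5.2, without strand and without multimapping or ambiguous reads. The deposited values are these raw counts, which were used as they are. Of the file's rows, 33 held counting commands without values and were left out.

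Genes were filtered with filterByExpr, scaled by TMM and fitted in 1 quasi-likelihood model of 9 group means with edgeR 4.0.16 (R 4.3.3, limma 3.58.1), and p was adjusted by Benjamini-Hochberg over all genes tested. The script was tested on simulated data. SE is the log2 fold change over the square root of F, an approximation. The common dispersion had a square root of 0.222, and p-values measure the spread between libraries, which the study's legends call biological replicates; the labels do not say how they were made. Levels are counts over size factors of DESeq2 1.42.0; levels per kilobase use GENCODE M21 exon lengths, not the authors' annotation.

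The 8 genes, the lists (wider trophoblast, simple epithelium, posterior and lateral mesoderm, surface ectoderm, all keratins) and the markers of EpiLCs, PGCLCs, neural, placental and endoderm cells were chosen from general knowledge with earlier results of these data known. Named genes are all 8, the 3 largest called changes of each list in a comparison, and the 2 genes closest to each in pattern, among genes with a mean log2 CPM of 1 or more; 1 gene that this rule names is not reported here. Alternatives were DESeq2's Wald test, no filter, RLE factors, scaling by library size only, a mean CPM of 1 as the filter, a replicate block, only the libraries compared, a log2 change beyond 2, TMM-scaled levels and leaving out each library.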

Additional observations from a re-analysis of the deposited data

Results flagged for a closer look

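The change of a gene differed between genotypes, by a test of the difference itself (edgeR's quasi-likelihood test, adjusted p below 0.05), in 9 cases, all given with their errors above. From EpiLCs to day 2 without cytokines, TKO minus WT change was −3.51 for Krt19, which rose by 3.82 in WT aggregates and had a log2 change of 0.31 in TKO aggregates that did not pass the test. From day 2 to day 6 without cytokines it was 5.49 for Krt7, 5.35 for Krt8, 4.19 for Krt18 and 4.53 for Krt19, all of which fell in WT aggregates. For the cytokine difference at day 6, TKO minus WT was −5.79 for Cdx2, −5.45 for Hand1, −6.68 for Krt7 and −1.63 for Krt19. Here the WT cells with cytokines were also sorted, so that genotype and sort cannot be told apart. Day 6 WT aggregates without cytokines had 3 counts or fewer per library for Cdx2, Hand1 and Krt7. The day 6 values of these genes, and the 5.49 of Krt7, therefore depend on the small added prior.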

How the results depend on the processing

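Across the alternatives no called change of the 8 genes reversed its direction. Counts of called genes (main value in brackets) moved beyond 1.5 times as follows. For TKO with against without cytokines at day 2 (1) the count was 3 without the filter, 2 with DESeq2, 5 with only the libraries compared and 0 with a log2 change beyond 2. For TKO with cytokines at day 6 against day 2 (1) it was 3, 2, 5 and 0 under the same settings. For TKO without cytokines at day 2 against EpiLCs (0) it was 2 without the filter, 2 with DESeq2, 3 with library size alone and 3 with only the libraries compared. For TKO without cytokines at day 6 against day 2 (0) it was 1 with only the libraries compared, and for WT without cytokines at day 6 against day 2 (5) it was 2. For the interaction from EpiLCs to day 2 (1) it was 3 without the filter, 2 with DESeq2 and 2 with only the libraries compared. The cause was not tested.

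Leaving out 1 library gave 1 to 3 called for TKO against WT EpiLCs (3), 3 to 5 for WT with cytokines against EpiLCs (6), 4 to 7 for WT with against without cytokines (4), 1 to 4 for TKO against WT with cytokines (4), 0 to 1 for TKO with against without cytokines at day 2 (1), 2 to 3 for TKO with cytokines at day 2 against EpiLCs (4) and 3 to 7 for the cytokine interaction (4). A group left with 1 library was assumed to vary like the others. Replicates shared a number only: their deviations correlated between groups by −0.156 to 0.182, over 0.1 in 7 of 36 pairs, and the replicate block changed none of the 119 tested member values' calls. Scaling by library size alone moved the median of all genes by up to 0.59 (log2), and TMM in place of size factors moved 2 of 72 group levels by more than their SD. Cdx2, Hand1 and Elf5 rest on few counts in WT cells, as do Krt7 in day 6 WT aggregates without cytokines and Gata3 in WT EpiLCs, which limits their folds.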
